A study of Mus musculus with 6 samples.

Results

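The genes described here build and control the lysosome of RAW 264.7 cells, a mouse macrophage-like line derived from a BALB/c tumour. They are 37 genes chosen by symbol for what they encode, of 22192 listed in the deposited table: 15 subunits and accessory proteins of the vacuolar proton pump, 7 membrane proteins of the lysosome and related organelles, 12 hydrolases and other lumenal proteins, and 3 transcription factors of the MiT family. The rule itself names genes and sets no threshold on a measured value, but the members were chosen with earlier results of these data known. All 37 were found, and all 37 were abundant enough to be among the 11686 genes tested, with at least 271 counts in every library.

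Cells of 3 libraries were given ASPS-A1, an acidic polysaccharide fraction purified from leaves of Acanthopanax senticosus, at 200 µg/mL for 24 h, and 3 libraries are labelled control with no further description. Both groups are the same line and no genetic change is named. The study's title links the polysaccharide to immune signalling through Toll-like receptors and NF-κB, and the comparison asks which transcripts differ with it. The labels do not say whether the libraries of a group came from separate cultures, so p-values measure only the spread between these libraries, which may be technical.

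Lysosomes are acidified by the vacuolar ATPase, a rotary pump. Its membrane sector, V0, holds a ring of proteolipid subunits through which protons pass, and its cytosolic sector, V1, hydrolyses ATP. Acid pH activates lysosomal hydrolases, which degrade what macrophages take up. The MiT factors TFEB, TFE3 and MITF bind a motif with the core CACGTG in promoters of many lysosomal genes, and nutrient signalling at the lysosomal surface controls how much of each factor enters the nucleus.

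Totals ran from 19989318 to 26137127 counts per library and were lower with ASPS-A1 than in control in every library (exact permutation p = 0.1, two-sided, the smallest that 3 libraries against 3 can give). No library stood apart: Spearman correlations across tested genes, which are not independent replicates, were 0.996 to 0.997 for libraries of the same group and 0.961 to 0.969 for libraries of different groups. All 9 macrophage markers fixed for the check were present. Their summed level was 3213 to 3340 CPM (counts per 1000000 of a TMM-scaled library) with ASPS-A1 and 2268 to 2294 CPM in control. Of the 9, 7 rose, beside 32.4% of all genes tested. Ptprc and Csf1r did not pass the test (log2 fold changes −0.073 and −0.095, edgeR adjusted p = 0.201 and 0.0749). The lists for fibroblasts, epithelium, T cells, B cells, neutrophils and melanocytes summed to less than 1 CPM in every library. The endothelial list held only Pecam1 above 1 CPM. Of 7 osteoclast markers, Ctsk, Calcr, Ocstamp and Oscar were under 1 CPM, Acp5 and Mmp9 rose and Dcstamp fell. The part of any shift in cell state in the results below was not tested, and in a bulk library a change in some cells and a smaller change in every cell cannot be told apart.

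The stretches and sites printed here show where the MiT core motif lies in promoters of members that rose, fell or did neither. They come from RefSeq (build GRCm38.p6), which gave a window from 250 bases before to 50 bases after the transcription start for 31 of the 37 members, all but Asah1, Atp6v1b2, Atp6v1c1, Atp6v1g1, Atp6v1h and Npc1. Capitals mark CACGTG in the first pair, the promoters of the member most abundant per kb of exon, which fell, and of the member that rose most.
Lamp1, chr8:13159080-13159160, plus strand: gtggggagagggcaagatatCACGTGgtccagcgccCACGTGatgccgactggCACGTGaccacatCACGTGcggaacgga
Atp6v0b, chr4:117887330-117887385, minus strand: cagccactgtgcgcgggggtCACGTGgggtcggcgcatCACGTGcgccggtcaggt

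In the next 5, capitals mark the longer palindrome TCACGTGA, each shown with 11 bases on either side; that of Cln3 lies in 1 of its 2 windows.
Atp6v0d1, chr8:105566050-105566079, minus strand: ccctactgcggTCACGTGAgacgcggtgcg
Atp6v0e, chr17:26676387-26676416, plus strand: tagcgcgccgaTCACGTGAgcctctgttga
Atp6v1a, chr16:44139373-44139402, minus strand: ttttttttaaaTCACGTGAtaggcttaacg
Cln3, chr7:126583340-126583369, minus strand: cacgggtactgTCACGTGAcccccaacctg
Mcoln1, chr8:3500462-3500491, plus strand: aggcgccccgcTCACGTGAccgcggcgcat

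Both motifs read the same on either strand, and every TCACGTGA also holds CACGTG. The shorter motif lay in the windows of 9 of the 31 members (29.0%), against 8.09% of all 27025 genes with a window and 11.8% of the 9277 of them that were tested. TCACGTGA lay in those of 5 members (16.1%), against 1.12% of all genes and 2.24% of tested genes. Lamp1 had 4 copies of CACGTG, the first at 61 bases and the last at 15 bases before the start. Of the 9 members with CACGTG, 5 rose (Atp6v0b, Atp6v0d1, Atp6v0e, Cln3 and Gaa), 2 fell (Atp6v1a and Lamp1) and 2 did not pass the test (Glb1 and Mcoln1). Of the 22 without it in this window, 10 rose, 7 fell and 5 did not pass. Among all tested genes, 32.4% rose and 33.0% fell. The calls with and without the motif were not compared in a test. These matches describe letters, and no binding was measured.

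Across the 37 members, proton pump transcripts were mostly higher with ASPS-A1, hydrolases and membrane proteins moved both ways, and the MiT genes Tfeb and Mitf were lower. In edgeR's quasi-likelihood test, with p-values adjusted by Benjamini-Hochberg across the whole table, 17 members rose, 9 fell and 11 did not pass an adjusted p of 0.05. Of all genes tested, 32.4% rose and 33.0% fell, so the 70.3% of members called lay near the 65.3% of all genes. The median log2 fold change (ASPS-A1 minus control) was 0.098 over the members and −0.021 over all genes. Changes were modest: the median absolute log2 fold change was 0.27 over the members against 0.38 over all genes, and 7 members (18.9%) differed by 1.5-fold or more, against 30.1% of all genes. The libraries of the groups did not overlap for 30 members (81.1%), against 68.5% of all genes. Together the 37 genes held a smaller share of all counts with ASPS-A1, 0.931% ± 0.000986, than in control, 1.06% ± 0.0103 (SD, n = 3), a measure on the library-totals scale. Lamp1 and Psap, the most abundant members, were among those that fell.

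Scaling mattered for the smaller changes. With scaling by library totals alone, log2 fold changes over all genes shifted by −0.20 in the median. Then 11 members rose, all among the 17, and 16 fell, among them all 9 that fell before, beside 21.6% and 46.7% of all genes. With offsets that remove trends with exon length and GC content, 17 rose and 11 fell, of which 15 and 8 were the same genes, beside 32.2% and 30.3% of all genes. Directions below that turn under either setting are named with the gene.

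**Figure D1:**
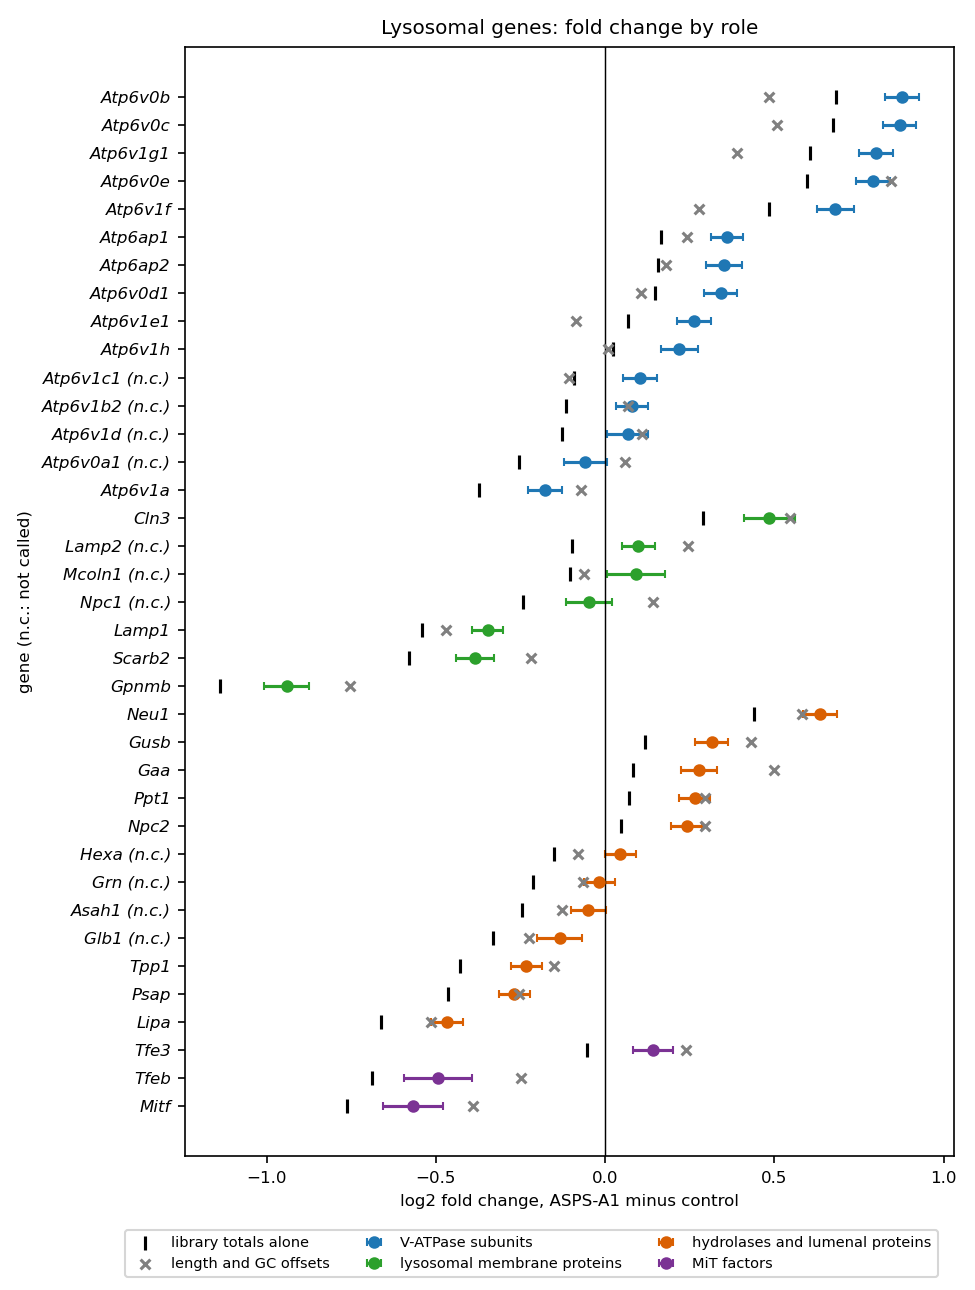
Log2 fold change (x axis, ASPS-A1 minus control) of each of the 37 genes (y axis), grouped and coloured by role; filled points are the edgeR estimates with bars of 1 standard error, vertical ticks the estimates with scaling by library totals alone, and crosses those with length and GC offsets. Atp6v0b is highest at 0.88 and Gpnmb lowest at −0.94.

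**Figure D2:**
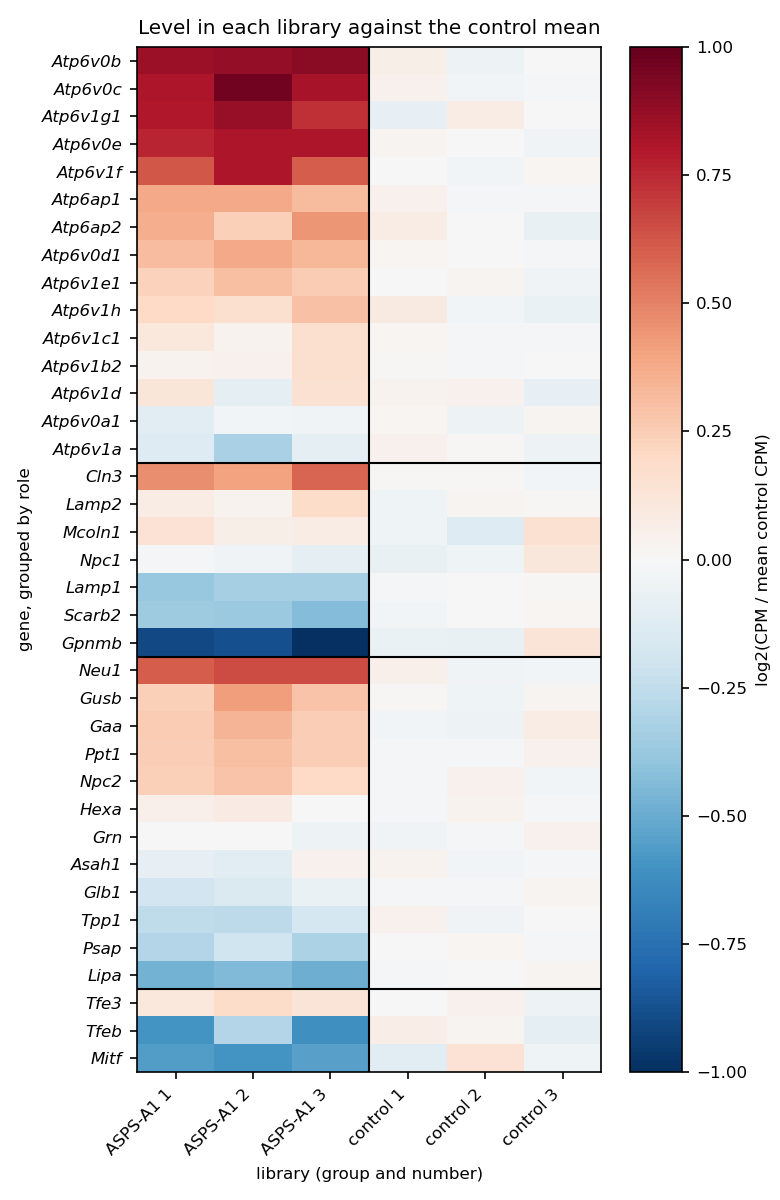
Level of each gene (rows) in each library (columns) as log2 of its CPM over the mean control CPM, from blue (lower) to red (higher), with lines between roles and between groups. The ASPS-A1 libraries of Atp6v0b, Atp6v0c, Atp6v0e and Atp6v1g1 are all dark red, and those of Gpnmb, Tfeb and Mitf are all blue.

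The V0 sector held the largest rises, those of Atp6v0b and Atp6v0c. Of its 5 member genes, 4 rose, beside 32.4% of all genes, and Atp6v0a1 did not pass the test. The same 4 rose with library totals and with the offsets, beside 21.6% and 32.2% of all genes. Atp6v0c encodes the proteolipid of the proton-carrying ring and was the most abundant of the 15 pump members per kb of annotated exon in both groups (436 ± 26.6 against 238 ± 6.74 CPM per kb, SD, n = 3). Its libraries stood at 527, 587 and 532 CPM with ASPS-A1 and at 309.8, 294 and 296 CPM in control. The treated libraries lay far above the control libraries, with no overlap (log2 fold change 0.87 ± 0.05 SE, edgeR adjusted p = 2.31e-20). Atp6v0b, which encodes a second proteolipid of the ring, stood at 188, 191 and 194 CPM against 108, 100.4 and 103 CPM. It was 1.84-fold higher, the largest rise among the members (0.88 ± 0.05 SE, edgeR adjusted p = 3.24e-20). An antisense gene, Gm12841, covers 11.8% of its exon length, and whether the counting used strand is not stated.

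Atp6v0e, a small hydrophobic V0 subunit, was 1.73-fold higher at 163 ± 3.08 against 94.0 ± 1.89 CPM (SD, n = 3). Atp6v0d1, which links the ring to the central stalk, was 1.27-fold higher at 154 ± 3.97 against 122 ± 1.66 CPM. Neither overlapped between groups.

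Subunit a, the V0 part that carries the proton half-channels and targets the pump to its membrane, has several genes, and their transcripts moved in different directions. Atp6v0a1 had 52.2, 55.0 and 54.7 CPM with ASPS-A1 and 56.9, 54.4 and 57.3 CPM in control (log2 fold change −0.06 ± 0.06 SE, edgeR adjusted p = 0.428). These groups overlapped, although with library totals it was called lower (−0.25), and with the offsets its value turned to 0.059. Tcirg1, the a3 gene of lysosomes and of osteoclasts, which is not among the 37, was 1.42-fold higher at 235 ± 2.87 against 166 ± 7.89 CPM (SD, n = 3). Atp6v0a2, best known from Golgi and endosomes and likewise outside the 37, was 2.13-fold lower at 20.7 ± 1.09 against 44.3 ± 1.46 CPM, with 9.86% of its exon length shared with an antisense gene. Both differences passed the edgeR test with library totals and with the offsets too. Atp6v0a4 was listed at 0 in all libraries.

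Of the summed level of Atp6v0a1, Atp6v0a2 and Tcirg1 in CPM per kb, Tcirg1 made up 80.5% ± 0.329 with ASPS-A1 and 69.4% ± 0.573 in control (SD, n = 3). Atp6v0a1 made up 15.1% ± 0.523 and 19.2% ± 0.543, and Atp6v0a2 4.39% ± 0.205 and 11.4% ± 0.102. No library of one group reached the range of the other for any of these shares. For subunit d, Atp6v0d2, the osteoclast-enriched gene, held 0.444% ± 0.114 of the summed level with ASPS-A1 and 0.468% ± 0.146 in control, from only 62 and 71 counts per group, and Atp6v0d1 held the rest. For subunit e, Atp6v0e held 63.8% ± 1.41 with ASPS-A1 and 55.0% ± 0.973 in control, and its paralog Atp6v0e2 the rest. These shares rest on annotated exon lengths of 3712 nt for Atp6v0e and 1789 nt for Atp6v0e2. In CPM, not divided by length, Atp6v0e had 163 with ASPS-A1 and 94.0 in control, and Atp6v0e2 had 44.4 and 37.1. Atp6v0e2 itself was 1.20-fold higher, a call lost with library totals and with the offsets.

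**Figure D3:**
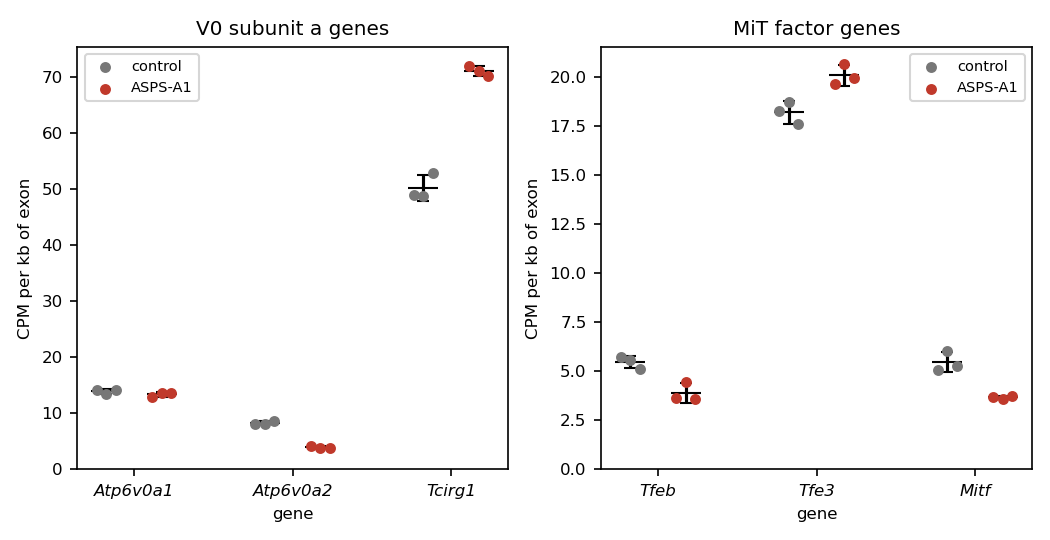
Level per library in CPM per kb of annotated exon (y axis, from 0) for the V0 subunit a genes (left) and the MiT genes (right), with points for libraries, horizontal marks for group means and bars for SD (n = 3), control in grey and ASPS-A1 in red. Tcirg1 is highest of its family in both groups and higher with ASPS-A1, Atp6v0a2 is lower, and Tfe3 is highest of the MiT genes in both groups.

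Of the 8 member genes of the V1 sector, 4 rose, 1 fell and 3 did not pass the test, with log2 fold changes from −0.18 to 0.80. The 5 called were a share near the 65.3% of all genes. Atp6v1g1, a subunit of the peripheral stalk, stood at 254, 267 and 242 CPM with ASPS-A1 and at 138, 154 and 146 CPM in control. It was 1.74-fold higher, with no overlap (0.80 ± 0.05 SE, edgeR adjusted p = 8.88e-19). Atp6v1f, of the central rotor, was 1.60-fold higher at 146 ± 11.7 against 91.2 ± 1.57 CPM.

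The catalytic subunit moved the other way. Atp6v1a, which holds the ATP-hydrolysing site, stood at 386, 337 and 394 CPM with ASPS-A1 and at 434, 424 and 406 CPM in control. All treated libraries were below all control libraries, by a small margin (log2 fold change −0.18 ± 0.05 SE, edgeR adjusted p = 0.0022). With the length and GC offsets it was −0.073 (adjusted p = 0.130), no longer called. Its partner in the catalytic hexamer, Atp6v1b2, was at 223 ± 10.7 against 211 ± 1.73 CPM with no overlap (SD, n = 3, adjusted p = 0.142 in edgeR). With library totals Atp6v1b2 was called lower (−0.12 on the log2 scale, edgeR adjusted p = 0.0266).

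The remaining V1 members differed by little. Atp6v1e1, of the peripheral stalk, was higher by 0.26, or −0.086 with the offsets (edgeR adjusted p = 0.0875), and Atp6v1h, a regulatory subunit, was higher by 0.22, or 0.024 with library totals (edgeR adjusted p = 0.724). Atp6v1c1, which controls assembly of the sectors, had 0.10 (edgeR adjusted p = 0.0652), and its direction rested on the setting: it was called higher with RLE factors (0.12, adjusted p = 0.042) and lower with the offsets (−0.11, adjusted p = 0.0317), and had −0.092 with library totals. Atp6v1d, of the rotor, had 0.067 (edgeR adjusted p = 0.343), and −0.13 with library totals. Without ASPS-A1 replicate 2, Atp6v1c1 (0.13, adjusted p = 0.0162) and Atp6v1d (0.13, adjusted p = 0.0443) were both called higher in edgeR. Both accessory proteins rose: Atp6ap1 was 1.28-fold higher at 226 ± 5.64 CPM and Atp6ap2, the prorenin receptor, 1.27-fold higher at 161 ± 11.6 CPM (SD, n = 3).

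Taking the pump as a whole, 10 of 15 members rose, 1 fell and 4 did not pass, with a median log2 fold change of 0.34, against 32.4% risen and a median of −0.021 over all genes. The medians were 0.79 for V0 and 0.16 for V1, which were 0.60 and −0.034 with library totals, and 0.49 and 0.038 with the offsets. The difference between the sectors was not tested. The same 8 rose with library totals (3 fell) and with the offsets (1 fell): Atp6v0b, Atp6v0c, Atp6v0d1, Atp6v0e, Atp6v1f, Atp6v1g1, Atp6ap1 and Atp6ap2. Of all genes, 21.6% rose and 46.7% fell with library totals, and 32.2% rose and 30.3% fell with the offsets. The 15 genes held 0.279% ± 0.00334 of all counts with ASPS-A1 and 0.245% ± 0.00503 in control (SD, n = 3), and no library of one group reached the range of the other.

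Annotated exon length moved with these values. Spearman's rho between exon length and log2 fold change was −0.380 across the 11385 tested genes with a length and −0.725 across the 15 pump members, all measured in the same libraries and so not independent. It was −0.177 across the other 22 members. Of 1504 tested genes under 1500 nt, 971 rose and 129 fell (median 0.45). The 5 members of that length, Atp6v0b, Atp6v0c, Atp6v1e1, Atp6v1f and Atp6v1g1, all rose (median 0.80). With the offsets, which remove this trend in each library, Atp6v0b had 0.49, Atp6v0c 0.51, Atp6v1g1 0.39 and Atp6v1f 0.28, all still called, while Atp6v1e1 turned to −0.086 (edgeR adjusted p = 0.0875). Atp6v0e, with 3712 nt over all its annotated exons, had 0.84. That length is a union over annotated transcripts, and its offset rests on it. Which of these transcripts the cells expressed was not measured.

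**Figure D4:**
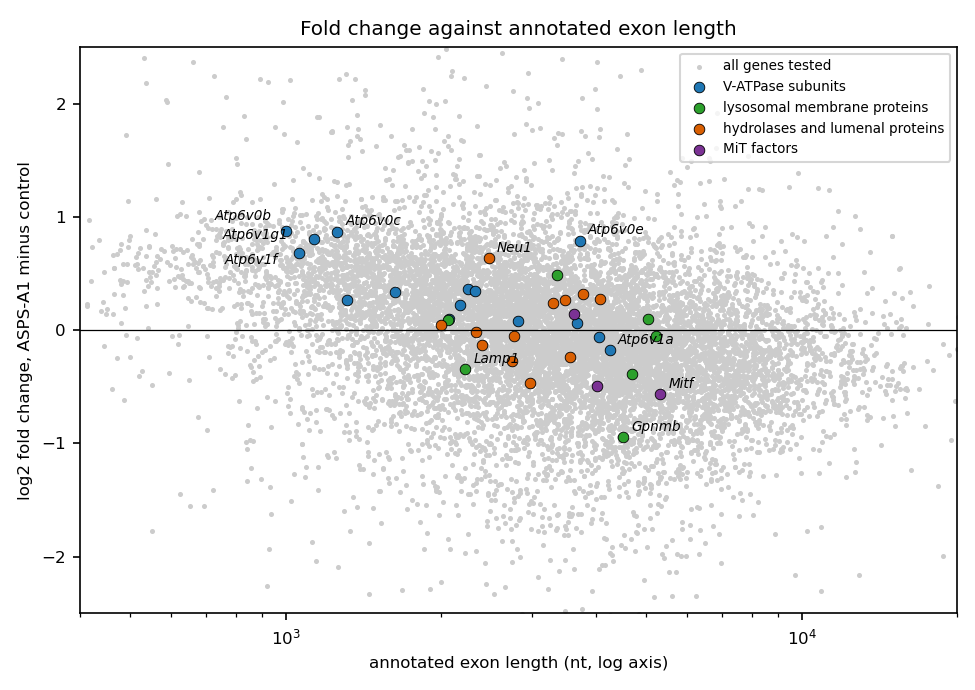
Log2 fold change (y axis, ASPS-A1 minus control) against annotated exon length in nt (log x axis) for tested genes within the axis range (grey) and for the members coloured by role. The shortest pump genes lie at the upper left, and Atp6v0e lies above the other members of similar length.

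Other genes of the pump and its assembly, from a list of 19, gave 5 risen and 4 fallen, beside 32.4% and 33.0% of all genes. A further 5 did not pass the test and 5 were too low to test. Besides Tcirg1, Vma21, an assembly chaperone of V0, was 1.46-fold higher, and the assembly factor Ccdc115 was higher by 0.28, a call lost with library totals (edgeR adjusted p = 0.215) and with the offsets (−0.0091). Besides Atp6v0a2, Dmxl1 (log2 fold change −0.45) and Rogdi (−0.40), both of the complex that reassembles V1 onto V0, were lower. Rogdi shares 10.2% of its exon length with Gm42477 on the other strand. In the same list Wdr7 was lower by less (−0.18), and had 0.077 with the offsets (edgeR adjusted p = 0.359). Dmxl2 was not called and overlapped between groups (0.11, edgeR adjusted p = 0.144). It had −0.089 with library totals and 0.32 with the offsets.

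Of the 7 lysosomal membrane members, 1 rose, 3 fell and 3 did not pass the test, beside 32.4% of all genes risen and 33.0% fallen. Their median of −0.047 lay near the −0.021 of all genes. With the offsets 3 rose and 3 fell, beside 32.2% and 30.3% of all genes. Lamp1, the most abundant lysosomal glycoprotein, was the most abundant member per kb in both groups. Its libraries stood at 1374, 1426 and 1426 CPM with ASPS-A1 and at 1771, 1798 and 1804 CPM in control. The groups were well apart although the fold was small, 1.27-fold lower (−0.35 ± 0.05 SE, edgeR adjusted p = 6.99e-09). The antisense neighbour Grtp1 covers 9.31% of its exon length. Lamp2, its partner glycoprotein and the receptor of chaperone-mediated autophagy, had 385, 375 and 415 CPM against 356, 373 and 368 CPM. Those groups barely separated (0.098, edgeR adjusted p = 0.068), and the value was −0.097 with library totals. It was called higher with the offsets (0.25), with RLE factors (0.11), with DESeq2 (0.11) and without ASPS-A1 replicate 2 (0.12).

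Gpnmb, a transmembrane glycoprotein of macrophages, osteoclasts and melanocytes and a known MiT target, showed the largest change of any member. Its libraries stood at 42.4, 42.9 and 38.2 CPM with ASPS-A1 and at 75.6, 75.2 and 86.3 CPM in control. Every treated library was far below the lowest control library, and the level was 1.92-fold lower (−0.94 ± 0.07 SE, edgeR adjusted p = 9.87e-17). Scarb2, also called LIMP-2, which carries glucocerebrosidase to lysosomes, had 69.2, 68.5 and 65.6 CPM against 86.7, 88.7 and 89.9 CPM, with no overlap (−0.38 ± 0.06 SE, edgeR adjusted p = 9.23e-08).

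Cln3, a membrane protein mutated in juvenile Batten disease, was the only membrane member that rose in the edgeR fit, at 38.5, 36.9 and 41.7 CPM against 28.1, 28.2 and 27.4 CPM. These groups did not overlap (0.49 ± 0.08 SE, edgeR adjusted p = 3.22e-07), and 7.65% of its exon length is shared with Apobr on the other strand. Mcoln1, the calcium release channel of lysosomes, had 28.9, 27.2 and 27.6 CPM against 25.4, 24.0 and 29.2 CPM, with overlap (0.091, edgeR adjusted p = 0.353, −0.10 with library totals and −0.063 with the offsets). Npc1, the cholesterol exporter of the lysosomal membrane, had 47.6 ± 1.23 against 49.1 ± 3.42 CPM (SD, n = 3), again with overlap (−0.047, edgeR adjusted p = 0.559), but 0.14 (adjusted p = 0.0486) with the offsets and −0.24 (adjusted p = 0.00266) with library totals. The antisense neighbour Rmc1 covers 5.31% of its exon length.

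Of 29 other lysosomal membrane genes, 9 rose and 11 fell, beside 32.4% and 33.0% of all genes. A further 8 did not pass and 1 was too low to test. Slc15a3, a histidine and peptide transporter of endolysosomes, was 3.50-fold higher at 281 ± 6.25 against 80.4 ± 2.12 CPM (SD, n = 3), with 28.1% of its exon length shared with Tmem132a. Spns1, a lysosomal phospholipid transporter, was 1.75-fold higher and the macrophage sialomucin Cd68 1.62-fold higher. Slc29a3, the lysosomal nucleoside transporter, was 3.06-fold lower at 9.59 ± 0.655 against 29.4 ± 2.72 CPM. The sialic acid exporter Slc17a5 was 1.71-fold and the amino acid exporter Slc36a1 1.66-fold lower. All 6 passed the edgeR test with library totals and with the offsets as well.

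Of the 12 hydrolases and lumenal proteins, 5 rose, 3 fell and 4 did not pass the test (median 0.014), so that the 8 called were a share near the 65.3% of all genes. With library totals 2 rose and 7 fell, beside 21.6% and 46.7% of all genes, and with the offsets 5 rose and 5 fell, beside 32.2% and 30.3%. Neu1, the sialidase that trims sialic acids from glycoproteins, rose most. Its libraries stood at 183, 189 and 189 CPM with ASPS-A1 and at 125, 118 and 119 CPM in control. The groups were far apart, 1.55-fold (0.64 ± 0.05 SE, edgeR adjusted p = 1.28e-15), and the rise was called with library totals (0.44) and with the offsets (0.58).

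Gusb, the β-glucuronidase that works on glycosaminoglycans, had 308, 348 and 319 CPM against 264, 253 and 267 CPM, with no overlap (0.32 ± 0.05 SE, edgeR adjusted p = 1.96e-07). Gaa, the acid α-glucosidase that degrades glycogen, had 122, 129.6 and 121 CPM against 100.5, 99.0 and 108 CPM, also with no overlap (0.28 ± 0.05 SE, edgeR adjusted p = 1.18e-05). The depalmitoylating enzyme Ppt1 was 1.20-fold and the cholesterol carrier Npc2 1.18-fold higher. With library totals Gaa (0.081), Ppt1 (0.069) and Npc2 (0.046) were no longer called.

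Lipa, Psap and Tpp1 were the lumenal members that fell. Lipa, the acid lipase that frees cholesterol and fatty acids from lipoproteins, stood at 367, 376 and 363 CPM with ASPS-A1 and at 503, 508 and 519 CPM in control. No treated library came near control (1.38-fold lower, −0.47 ± 0.05 SE, edgeR adjusted p = 2.89e-12). Psap, the precursor of the saposins that activate sphingolipid hydrolases, was the most abundant lumenal member, at 1592, 1696 and 1562 CPM against 1937, 1978 and 1926 CPM. It was lower in every treated library (−0.27 ± 0.05 SE, edgeR adjusted p = 2.49e-06). Tpp1, a tripeptidyl peptidase, had 244, 243 and 258 CPM against 300.3, 284 and 290.1 CPM, with no overlap (−0.23 ± 0.05 SE, edgeR adjusted p = 2.39e-05). All of these were also called lower with library totals and with the offsets.

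Hexa, the α chain of hexosaminidase, Asah1, the acid ceramidase, and Grn, the progranulin gene, overlapped between groups. Hexa had 351 ± 11.1 against 341 ± 6.74 CPM, Asah1 139 ± 8.30 against 144 ± 3.15 CPM, and Grn 684 ± 12.3 against 692 ± 18.8 CPM (SD, n = 3), with edgeR adjusted p of 0.409, 0.403 and 0.762. The β-galactosidase gene Glb1 had 44.5 ± 1.91 against 48.8 ± 0.882 CPM with no overlap (edgeR adjusted p = 0.0752), and without ASPS-A1 replicate 3 it was called lower (−0.17, adjusted p = 0.0490). With library totals all 4 of these genes were called lower, with Hexa at −0.15 and Grn at −0.21. With the offsets Glb1 (−0.23) and Asah1 (−0.13) were called lower, and Hexa turned to −0.081 without a call. The antisense neighbour Tmem202 covers 12.8% of the Hexa exon length, and Tmppe shares 5.49% of that of Glb1 on the same strand.

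Of 40 other hydrolases, activators and sorting factors, 16 rose and 16 fell, beside 32.4% and 33.0% of all genes, and 8 did not pass. M6pr, the receptor that carries mannose-6-phosphate-tagged enzymes to endosomes, was 1.68-fold higher at 609 ± 12.2 against 363 ± 2.89 CPM (SD, n = 3). Gnptg, a subunit of the transferase that makes that tag, was 1.86-fold and the sulfatase Arsa 1.52-fold higher, although 49.5% of the Gnptg exon length is shared with Unkl and 18.8% of that of Arsa with C230037L18Rik. Hyal1, a hyaluronidase with 51.9% of its exon length shared with Naa80, was 2.44-fold lower. Arsb, a sulfatase of dermatan and chondroitin sulfate with 39.9% shared with Gm26527, was 2.17-fold lower at 100.8 ± 4.50 against 219 ± 7.70 CPM, and the α-mannosidase Man2b1 was 1.78-fold lower. All 6 kept their direction and call with library totals and with the offsets.

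Of the MiT genes, Tfeb and Mitf fell and Tfe3 rose slightly. Tfeb, the main inducer of lysosomal genes under starvation, stood at 14.5, 17.9 and 14.3 CPM with ASPS-A1 and at 23.0, 22.3 and 20.5 CPM in control. It was lower in every treated library (1.41-fold, −0.49 ± 0.10 SE, edgeR adjusted p = 2.82e-05), and called lower with library totals (−0.69) and the offsets (−0.25). Mitf, the melanocyte and osteoclast factor of the family, stood at 19.6, 19.1 and 19.8 CPM against 26.7, 32.0 and 28.1 CPM. Its treated libraries lay close together and below all control libraries (1.48-fold lower, −0.57 ± 0.09 SE, edgeR adjusted p = 2.47e-07), again in both other settings.

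Tfe3, which acts alongside TFEB in macrophages, stood at 71.0, 74.7 and 72.1 CPM against 66.1, 67.7 and 63.6 CPM. The groups did not overlap but the difference was small (1.10-fold, 0.14 ± 0.06 SE, edgeR adjusted p = 0.0329). It was −0.053 with library totals, and not called with upper-quartile factors (0.090) or with no filter on low counts (0.13). The call was lost without ASPS-A1 replicate 2 (0.12, adjusted p = 0.0938), without control replicate 1 (0.14, adjusted p = 0.0740) and without control replicate 3 (0.11, adjusted p = 0.137).

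Tfe3 was the most abundant MiT transcript per kb in every library, at 20.1 ± 0.532 CPM per kb with ASPS-A1 and 18.2 ± 0.574 in control (SD, n = 3). Tfeb had 3.88 ± 0.496 and 5.46 ± 0.322, and Mitf 3.67 ± 0.0659 and 5.44 ± 0.512. Tfe3 made up 72.7% ± 0.640 of the summed level with ASPS-A1 and 62.5% ± 0.640 in control. The sum itself was 27.6 ± 0.954 CPM per kb against 29.1 ± 1.16, with overlapping libraries. Tfec, the remaining family member, was listed at 0 in all libraries. These are transcript levels, and the place of the proteins in the cell, where much of their control lies, was not measured.

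Genes linked to control of the MiT factors or of lysosomal genes, 25 with Tfec, gave 9 risen and 9 fallen, beside 32.4% and 33.0% of all genes. A further 5 did not pass the test and 2 were too low to test. With library totals 5 rose and 14 fell, beside 21.6% and 46.7% of all genes. With the offsets 6 rose and 8 fell, beside 32.2% and 30.3%. Rheb, the GTPase that activates mTORC1, was 1.83-fold higher at 138 ± 0.870 against 75.4 ± 4.98 CPM (SD, n = 3). Lamtor4 and Lamtor5, of the Ragulator scaffold, were higher by 0.59 and 0.54, though with the offsets Lamtor4 had 0.18 and Lamtor5 0.066 (edgeR adjusted p = 0.255). Rragb, a Rag GTPase, was 3.47-fold lower at 6.11 ± 0.997 against 21.2 ± 1.36 CPM. Fnip2, a partner of folliculin, and Zkscan3, a zinc-finger repressor of lysosomal genes, were both 1.68-fold lower.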

How the data were processed

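RNA of 6 libraries, 3 per group, was enriched with oligo(dT) beads and primed with random hexamers, per the labels' protocols. The deposited table holds raw counts per gene symbol in whole numbers. The submitters' processing notes name HTSeq 0.9.1, HISAT2 2.1.0, DESeq 1.38.3 and fastp 0.22.0. Genome build, annotation and use of strand are not stated in the labels. Genes were kept with filterByExpr (minimum count 10, minimum total 15), scaled with TMM and tested with edgeR 4.0.16 in R 4.3.3 (robust glmQLFit, glmQLFTest, two-sided), with no block, since the labels name no batch. SE is the absolute log2 fold change over the square root of F. The common biological coefficient of variation was 5.66%. No library was a copy of another: within groups, chi-square was 4.27 to 6.95 times its degrees of freedom.

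Exon lengths (union of exons of the GENCODE M21 basic set), GC content and exon overlap were found for 97.4% of tested genes. The edgeR, DESeq2 and limma-voom fits were run on simulated counts with known answers, drawn with dispersions estimated from these libraries. Such counts cannot show whether the libraries came from separate cultures. Alternatives were RLE and upper-quartile factors, library totals, DESeq2 1.42.0, limma-voom (limma 3.58.1), other count filters, a replicate block, each library left out, glmTreat against 1.5-fold, and lowess offsets (span 0.3) for length and GC. All members are described by role. For each role, all library values are given for up to 3 members per direction with the largest changes and for the most abundant, and for every MiT gene. From each list of other pathway genes up to 3 called genes per direction are named, with Atp6v0d2 and Tfec. The members and lists were chosen with earlier results of these data known.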

Additional observations from a re-analysis of the deposited data

How the results depend on the processing

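Against the 17 risen and 9 fallen members, scaling by library totals gave 11 and 16, and testing against 1.5-fold (glmTreat) gave 4 (Atp6v0b, Atp6v0c, Atp6v0e and Atp6v1g1) and 1 (Gpnmb). Of all genes, 21.6% rose and 46.7% fell with library totals, and 32.2% rose and 30.3% fell with the offsets. By role, glmTreat gave 4 risen and 0 fallen pump genes, 0 risen and 1 fallen membrane protein, 0 risen and 0 fallen hydrolases and 0 fallen MiT genes, with 812 risen and 880 fallen of all genes. Library totals gave 3 fallen pump genes, and 2 risen and 7 fallen hydrolases. Offsets for length and GC gave 3 risen membrane proteins and 5 fallen hydrolases, and RLE factors and DESeq2 each gave 2 risen membrane proteins. Leaving out a library gave 1 to 2 risen membrane proteins, with 2 only without ASPS-A1 replicate 2, where Lamp2 was called. Of 592 member values over 16 alternatives, 526 kept their direction and call and 16 turned direction, none of them called in both fits. With library totals those were Atp6v1b2 (−0.12), Atp6v1c1 (−0.092), Atp6v1d (−0.13), Lamp2 (−0.097), Mcoln1 (−0.10), Hexa (−0.15) and Tfe3 (−0.053). With the offsets they were Atp6v0a1 (0.059), Atp6v1c1 (−0.11), Atp6v1e1 (−0.086), Npc1 (0.14), Mcoln1 (−0.063) and Hexa (−0.081). Hexa also had −0.0074 with upper-quartile factors, and without control replicate 3 Npc1 had 0.0085. Over the fits without a library Grn ran from −0.038 to 0.00076. Library totals and upper-quartile factors shift all genes alike, and the offsets change each gene by trends with its exon length and GC content. The turns of Npc1 and Grn with a library left out were not tested for a cause.

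Same-numbered libraries did not deviate together (correlations −0.0138, 0.00709 and 0.00398). With a replicate block 17 members rose and 9 fell, with the same calls. At 62 and 71 counts per group, depth limited the comparison of Atp6v0d2.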
